A study of Mus musculus with 9 samples.

Results

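The genes described here encode the voltage-gated sodium channels and the high-voltage-activated calcium channels, with their auxiliary subunits. They were found by gene symbol in tables of the mouse dLGN (dorsal lateral geniculate nucleus), the part of the thalamus that passes retinal signals on to visual cortex. The symbols Scn1 to Scn11 ending in a or b, and those beginning with Cacna1, Cacna2d or Cacnb, were taken, without the T-type genes Cacna1g, Cacna1h and Cacna1i. This gave 27 genes, each of them present both among the 20011 genes measured for 1 h and the 20399 measured for 8 h of light (19703 genes were in both). They comprise 8 sodium α subunits, 4 sodium β subunits, 7 calcium α1 subunits, 4 α2δ subunits and 4 calcium β subunits. The gene of the sodium channel Nav1.2 is listed under its older symbol, Scn2a1, which the symbol rule does not match, so its values are given beside the members and not among them. Scn10a was not analysed here.

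All mice were C57BL/6J, of both sexes, and the labels name no transgene or mutation. They were kept in the dark from postnatal day 20 to postnatal day 27. The 0 h group was dissected directly from darkness, another group after 1 h of light and the last after 8 h of light, with 3 libraries in each group. Every group therefore shares the week of darkness, and no normally reared mice were analysed here. Ribosome-depleted total RNA of the dissected tissue was sequenced, so each value is a sum over all cell types in the piece. By its title the series concerns the refinement of retinal connections by visual experience, and the comparisons ask which RNAs the return of light alters after 1 h and after 8 h.

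Voltage-gated sodium channels open within a fraction of a millisecond of depolarisation and carry the upstroke of the action potential. A single α subunit forms the pore and the voltage sensors, and β subunits adjust gating and tether the channel to adhesion and cytoskeletal proteins. High-voltage-activated calcium channels are built on a pore-forming α1 subunit with a cytoplasmic β subunit and an extracellular α2δ subunit, which bring the channel to the membrane. They trigger transmitter release at terminals, and the L-type members also couple depolarisation of the soma and dendrites to gene transcription in the nucleus. Relay cells of the thalamus fire either single spikes or bursts, and the bursts ride on the low-threshold T-type calcium channels left out here.

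The 9 libraries held between 5.73 M counts, in 0 h replicate 1, and 22.6 M counts, in 8 h replicate 1. Levels are in CPM, counts scaled to library size. A floor of 3 reads equals 0.524 CPM in the smallest library but 0.133 CPM in the largest, limits that cover counting error only. The tissue carried the thalamic relay markers: all 7 listed genes were measured, and their summed level was 3669 to 4464 CPM across the 9 libraries. Rora and Prkcd made up most of that sum. Glial markers were present as well: 6 for oligodendrocytes summed to 20132 to 23633 CPM, and 5 for astrocytes to 1349 to 1508 CPM. A pair of libraries stood apart from the rest. 1 h replicate 1 held 13.8 CPM and 0 h replicate 2 held 18.2 CPM of Neurod6, which encodes a helix-loop-helix factor typical of excitatory cells in cortex and hippocampus, against 0.23 to 3.62 CPM in the other 7. Where a fold change of Cacna1e, Scn3b, Cacna2d2, Scn7a or Scn9a is printed below, it is given with and without the libraries of this pair. Another library, 0 h replicate 3, held 0.331 CPM of Xist, the RNA of the inactive X chromosome of females, against 218 CPM or more in the other 8. Values of Cacna1a, Cacna1b, Cacna1c and Scn7a are given with and without that library.

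The α subunits lie partly in clusters, and the 250 bases before the RefSeq start of 4 of them are printed here (RefSeq, build GRCm38.p6) because genes next to each other differed widely in level. Scn1a, Scn9a and Scn7a follow one another on chromosome 2, with gaps of 39.2 kb and 37.7 kb, all on the minus strand. Scn8a, on chromosome 15 and on the plus strand, was close to Scn1a in level. Capitals mark each CG dinucleotide, the sequence in which cytosine is methylated in mammals and which clusters in CpG islands.

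Scn1a, chr2:66440838-66441087, minus strand: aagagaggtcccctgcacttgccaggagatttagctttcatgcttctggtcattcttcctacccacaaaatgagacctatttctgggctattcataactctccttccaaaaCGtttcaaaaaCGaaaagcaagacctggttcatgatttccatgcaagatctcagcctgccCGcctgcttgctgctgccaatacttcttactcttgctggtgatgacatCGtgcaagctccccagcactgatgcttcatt
Scn9a, chr2:66634963-66635212, minus strand: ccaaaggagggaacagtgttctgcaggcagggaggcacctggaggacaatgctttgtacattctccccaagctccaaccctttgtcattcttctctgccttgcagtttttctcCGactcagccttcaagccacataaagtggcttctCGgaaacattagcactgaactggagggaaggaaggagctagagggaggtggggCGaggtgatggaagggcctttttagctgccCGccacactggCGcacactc
Scn7a, chr2:66784911-66785160, minus strand: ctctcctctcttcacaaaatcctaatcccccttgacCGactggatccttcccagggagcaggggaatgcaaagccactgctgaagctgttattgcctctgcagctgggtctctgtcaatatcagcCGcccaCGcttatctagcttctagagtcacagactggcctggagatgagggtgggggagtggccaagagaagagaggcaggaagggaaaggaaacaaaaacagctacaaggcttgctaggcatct
Scn8a, chr15:100870395-100870644, plus strand: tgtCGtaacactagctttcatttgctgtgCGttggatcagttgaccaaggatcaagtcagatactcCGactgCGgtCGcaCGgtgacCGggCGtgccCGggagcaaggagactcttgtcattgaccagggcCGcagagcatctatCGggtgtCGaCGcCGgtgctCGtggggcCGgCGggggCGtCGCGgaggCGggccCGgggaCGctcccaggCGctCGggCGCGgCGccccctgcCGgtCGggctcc

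These windows hold 4 CG dinucleotides for Scn1a, 5 for Scn9a, 3 for Scn7a and 30 for Scn8a. Scn1a averaged 57.1 CPM per kb of exon, Scn8a 39.8, Scn9a 0.207 and Scn7a 0.156 over the 9 libraries. The highest of these genes and the lowest ones thus have similarly few CG dinucleotides, and Scn8a, with far more, lay between them. The Scn8a window is the CG-richer of its 2 RefSeq starts.

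Among the sodium α subunits, Scn1a (Nav1.1, a channel of somata and axon initial segments whose loss of function in people causes Dravet syndrome) was the most abundant per length. Its level was 498, 484 and 517 CPM in the 0 h libraries, 496, 506 and 536 CPM in the 1 h libraries, and 531, 478 and 493 CPM in the 8 h libraries. The highest library exceeded the lowest by 1.12 times. Scn8a (Nav1.6, the main channel of nodes of Ranvier and of mature axon initial segments) stood at 548, 558 and 524 CPM at 0 h, 550.4, 559 and 486 CPM at 1 h, and 590.0, 551 and 548 CPM at 8 h. The exonic length given for it is greater, 13.7 kb against 8.84 kb for Scn1a, so it followed at 39.8 CPM per kb. The ranges of the 2 genes per kb did not overlap. Scn2a1 (Nav1.2, abundant in unmyelinated axons) had 33.4 CPM per kb, and its range overlapped that of Scn8a.

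Scn3a (Nav1.3, best known from the embryonic brain) came a step lower, at 4.27 CPM per kb. It had 39.4, 46.4 and 45.5 CPM at 0 h, 47.0, 47.2 and 52.2 CPM at 1 h, and 44.7, 54.0 and 48.9 CPM at 8 h. Of the summed level per kb of the 8 α members, Scn1a made up 56.1% ± 1.66 and Scn8a 39.1% ± 1.79 (SD, n = 9 libraries). With Scn2a1 counted in, the share of Scn1a was 39.9% to 43.9% and that of Scn2a1 21.3% to 28.2%.

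The α subunits known from other tissues were scarce. Scn9a (Nav1.7, of sensory and sympathetic neurons) averaged 0.207 CPM per kb and Scn7a (Nax, a sodium-sensing relative found in glia of salt-sensing brain regions) 0.156, and their ranges overlapped. Scn11a (Nav1.9, of pain-sensing neurons) had 20 reads over the 9 libraries and was at 0 in 2 of them. Scn4a (Nav1.4, of skeletal muscle) had 19 reads and was at 0 in 3 libraries. Of 5 listed muscle markers, Acta1 and Ryr1 were measured, with a summed level of 2.51 to 6.65 CPM. Part of the Scn9a count cannot be assigned: 180 of its exonic bases overlap the antisense gene Gm13629, which had 11.5 CPM against 2.78 CPM for Scn9a, and whether counting used strand is not stated in the labels.

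Among the sodium β subunits, Scn2b (β2, joined to the α subunit by a disulfide bond) averaged 81.9 CPM per kb, Scn4b (β4, linked to resurgent sodium current) 25.5 and Scn3b (β3) 7.45. The ranges of these 3 genes over the 9 libraries did not overlap. The highest library of Scn2b exceeded its lowest by 1.08 times, and that of Scn3b by 2.21 times.

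**Figure D1:**
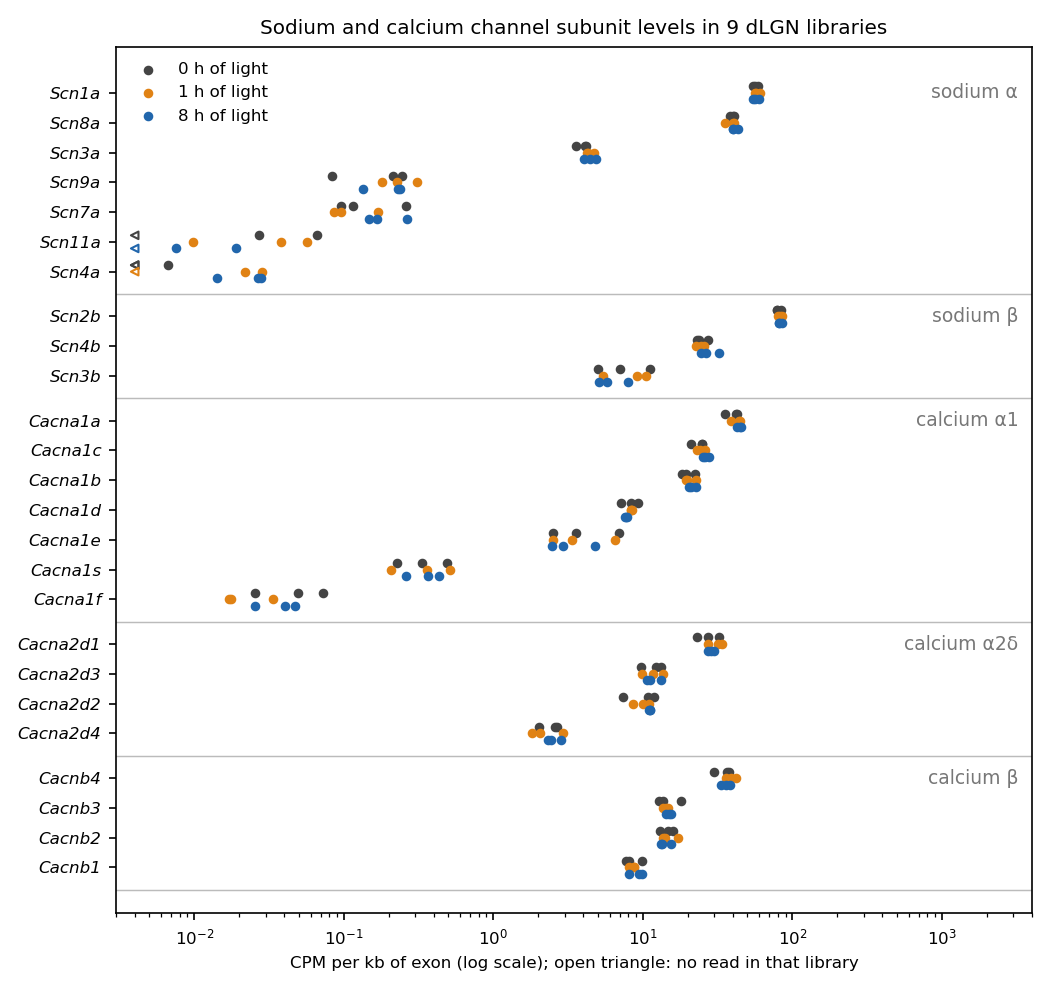
Level of the named channel genes in each of the 9 libraries, in CPM per kb of exon on a log axis, by role and by light time; open triangles at the left edge mark libraries with no read. Most genes above 1 CPM per kb sit in narrow bands that share one place at 0, 1 and 8 h, apart from the wider Cacna1e and Scn3b, while Scn4a, Scn7a, Scn9a, Scn11a, Cacna1f and Cacna1s lie below 1 CPM per kb.

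Among the calcium α1 subunits, Cacna1a (Cav2.1, the P/Q-type channel of fast transmitter release) led with 42.2 CPM per kb. It had 378, 384 and 317 CPM at 0 h, 403, 393 and 348 CPM at 1 h, and 404, 400.3 and 380.4 CPM at 8 h. The L-type gene Cacna1c (Cav1.2) at 24.7 CPM per kb and the N-type gene Cacna1b (Cav2.2, also presynaptic) at 20.6 came next, with overlapping ranges. Cacna1d (Cav1.3, an L-type channel that opens at more negative voltages) followed at 8.10 and Cacna1e (Cav2.3, the R-type channel) at 3.94. Cacna1a held 42.2% ± 1.08 of the summed α1 level per kb, Cacna1c 24.7% ± 1.07 and Cacna1b 20.7% ± 0.923 (SD, n = 9 libraries).

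The remaining α1 genes belong to other tissues. Cacna1s (Cav1.1, the voltage sensor of skeletal muscle) had 0.356 CPM per kb, and 1309 of its 6550 exonic bases in the reference overlap a gene on the opposite strand. Cacna1f (Cav1.4, of photoreceptor terminals) had 36 reads in all, 1 to 9 in each library.

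Among the α2δ subunits, Cacna2d1 (α2δ-1, the binding site of gabapentin and a receptor for thrombospondins in synapse formation) was the most abundant at 29.0 CPM per kb, 54.2% ± 3.18 of their sum. Cacna2d3 at 11.7 and Cacna2d2 at 10.3 CPM per kb overlapped in range, and Cacna2d4, whose loss impairs photoreceptors, had 2.40. Among the β subunits, Cacnb4 (the subunit mutated in the lethargic mouse) led with 36.5 CPM per kb, 49.0% ± 2.21 of their sum; 1433 of its exonic bases overlap a transcript on the opposite strand. Cacnb3 at 14.6 and Cacnb2 at 14.5 overlapped, and Cacnb1 had 8.73. The place of Cacnb2 depends on the length used: 6279 exonic bases here, against 13228 in the reference used for overlaps. A single gene thus made up roughly the same large share of its class in every library, whatever the light time: Scn1a 54.1% to 59.7%, Cacna1a 40.3% to 43.7%, Cacna2d1 50.3% to 59.1% and Cacnb4 46.6% to 51.9%.

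**Figure D2:**
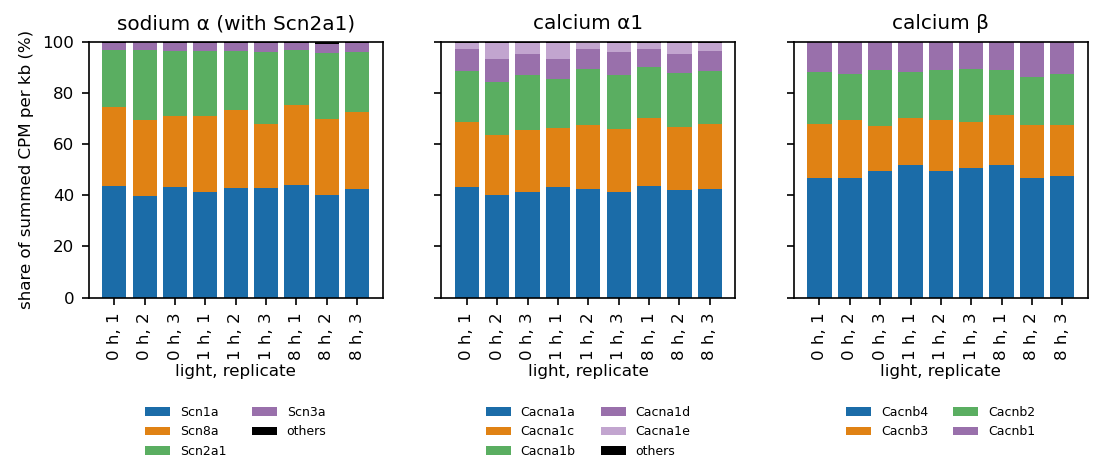
Share of each gene in the summed CPM per kb of its class in each library, for sodium α subunits (with Scn2a1), calcium α1 and calcium β subunits; bars stand for single libraries, named by light time and replicate. The order of the shares is nearly the same in all 9 bars, and Cacna1e is widest in 0 h replicate 2 and 1 h replicate 1.

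The CG count before the start is set beside the level of the members here, and a relation between them was not tested. RefSeq gave 30 windows of 250 bases for 21 of the 27 members. The 24 windows of the 15 genes above 10 CPM held a median of 23 CG dinucleotides, and genes with several starts count more than once there. The median was 4 in the 6 windows of genes under 10 CPM and 6 in all 32851 mouse windows. No window of a member under 10 CPM held more than 9. Scn2b with 1 and Scn1a with 4 CG dinucleotides were nevertheless among the most abundant members, and Cacna1e had 6. The cAMP response element TGACGTCA, the site of the activity-dependent factor CREB, was in 0 of the 30 windows and in 1.55% of all windows on either strand. The AP-1 motif TGANTCA, the site of Fos and Jun proteins, was in 0 of 30 and in 6.75% of all. These letters being missing from a window says nothing of more distant sites.

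**Figure D3:**
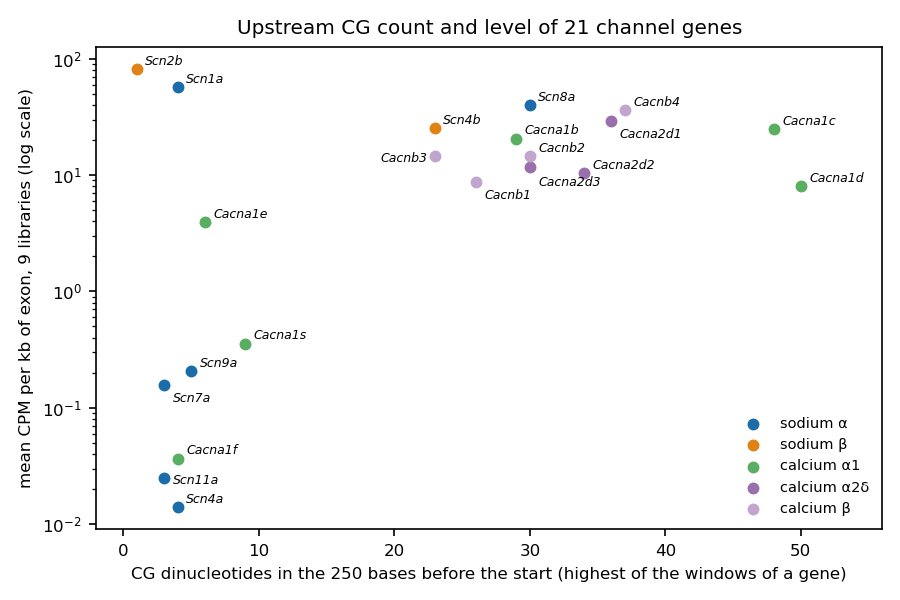
CG dinucleotides in the 250 bases before the start (the window with most, where a gene has several) against mean CPM per kb over 9 libraries on a log axis, for the 21 members with a RefSeq window. Genes with 20 or more CG dinucleotides all lie above 8 CPM per kb, and genes with fewer span the whole range, from Scn4a at 0.014 to Scn2b at 81.9 CPM per kb.

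After 8 h of light, no member was called against 0 h. The edgeR quasi-likelihood test with Benjamini-Hochberg adjustment, at a threshold of 0.05, called 0 of the 24 members that passed the filter on low counts, against a background of 0.587% of all 15330 genes tested. At an unadjusted p under 0.05 there were also 0 members, against 10.2% of all genes, and DESeq2 called 0 of the 23 members to which it gave an adjusted p. The median log2 fold change of the 24 members was 0.05, with 16 above 0 and 8 below, and that of all genes was -0.00 with quartiles at -0.11 and 0.10. The authors' deposited table likewise gave 0 of the 27 members an FDR under 0.05, with 0.538 as the lowest, for Scn4a. Scn4a had 5, 4 and 2 reads in the 8 h libraries and 0, 1 and 0 reads in the 0 h libraries, near the floor of 3 reads per library, so no fold is given for it here.

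The intervals were narrow for most members. For 18 of the 24 the 95% interval lay within a 1.5-fold change in either direction, as it did for 71.1% of all genes. These 18 were all among the 20 members above 10 CPM, whose standard errors ran from 0.06 to 0.32 on the log2 scale. Scn1a, Scn8a, Cacna1a, Cacna1b, Cacna1c, Cacna2d1 and Cacnb4 belong to them. The exceptions among the abundant genes were Cacna1e and Scn3b, and Scn7a, Scn9a and Cacna1s, at under 10 CPM, did not reach that precision.

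Cacna1e and Scn3b were among the members with the largest differences at 8 h. Cacna1e had 56.8, 109 and 67.3 CPM at 8 h, against 57.2, 159 and 81.3 CPM at 0 h. The groups overlapped, and the log2 fold change was -0.39 ± 0.32 (SE; edgeR adjusted p = 0.738). Scn3b had 21.7, 33.9 and 24.4 CPM at 8 h, against 21.5, 47.7 and 30.0 CPM at 0 h, a log2 fold change of -0.37 ± 0.24 (edgeR adjusted p = 0.655) between overlapping groups.

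The member closest to the threshold at 8 h, named after its values were seen, was Cacna1c. This gene of the main L-type channel had 527, 499 and 483 CPM at 8 h, against 472, 473 and 399 CPM at 0 h. Here every 8 h library lay above every 0 h library, which held for 1 of 24 members and for 9.09% of all genes in that direction; no member had all 8 h libraries below, against 7.01% of all genes. The log2 fold change was 0.16 ± 0.07, with an unadjusted p of 0.0543 and an edgeR adjusted p of 0.501. The upper end of its 95% interval was a 1.25-fold level. The library 0 h replicate 3 was the lowest of all in Cacna1c, Cacna1a and Cacna1b. Without it the Cacna1c value was 0.08 ± 0.06, that of Cacna1a 0.04 ± 0.06 against 0.13 ± 0.08 with it, and that of Cacna1b 0.03 ± 0.08 against 0.09 ± 0.08.

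**Figure D4:**
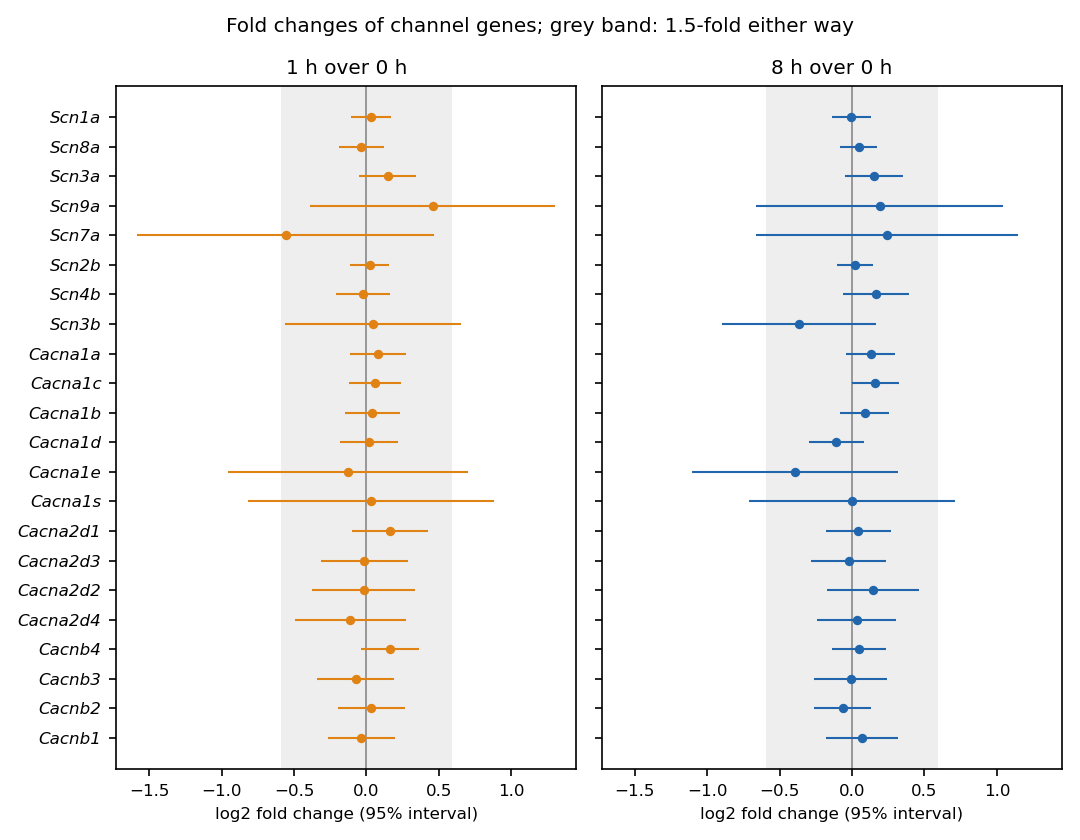
Log2 fold changes of tested members with their 95% intervals, 1 h over 0 h on the left and 8 h over 0 h on the right; the grey band marks 1.5-fold in either direction. Every interval crosses 0, and the wide ones that leave the band belong to Scn9a, Scn7a, Cacna1s, Cacna1e and Scn3b.

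After 1 h of light, 0 of 24 members were called against 0 h by edgeR, against 0.0132% of 15164 genes. There were 0 at an unadjusted p under 0.05 (3.2% of all genes), and DESeq2 called 0 of 23. The median log2 fold change was 0.03 for the members and 0.00 for all genes, with 15 members above 0 and 9 below. The 95% interval lay within 1.5-fold for 18 of 24 members and 72.1% of all genes. By role, the sodium β subunits lay between -0.02 and 0.05, the calcium α1 subunits between -0.13 and 0.08 and the calcium β subunits between -0.08 and 0.16. Scn3a, named after its values were seen, was higher in every 1 h library than in every 0 h library, 1 of 24 members against 4.6% of all genes, with a log2 fold change of 0.15 ± 0.09 that did not pass the test (edgeR adjusted p = 1.00). No member was lower without overlap, against 4.12% of all genes.

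Among the largest differences at 1 h were those of the scarce sodium α genes Scn7a and Scn9a. Scn7a had 1.25, 0.706 and 0.627 CPM at 1 h, against 0.848, 0.698 and 1.92 CPM at 0 h, a log2 fold change of -0.56 ± 0.46. One library decides its direction: without 0 h replicate 3 the value was 0.11. Without both Neurod6-rich libraries it was -1.22 ± 0.47 (edgeR adjusted p = 0.999). Scn9a had 3.06, 2.41 and 4.16 CPM at 1 h, against 2.88, 1.13 and 3.31 CPM at 0 h, a log2 fold change of 0.46 ± 0.38 (edgeR adjusted p = 1.00 for both genes) between overlapping groups. Its 95% interval reached from a 0.764-fold to a 2.47-fold level. The Scn9a value moved with several single libraries. It was 0.03 without 0 h replicate 2, 0.20 without 1 h replicate 3 and 0.89 without 0 h replicate 3. Without both Neurod6-rich libraries it was 0.05.

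Between 8 h and 1 h, 0 of 24 members were called by edgeR, against 0.603% of 15586 genes, and 0 had an unadjusted p under 0.05, against 8.9%; DESeq2 called 0 of 20. The 95% interval lay within 1.5-fold for 18 of 24 members and 71.3% of all genes. Scn7a had 1.22, 1.93 and 1.09 CPM at 8 h, against 1.25, 0.706 and 0.627 CPM at 1 h, a log2 fold change of 0.80 ± 0.43 (edgeR adjusted p = 0.650). The groups overlapped. Without the Neurod6-rich pair the value of Scn7a was 1.07 ± 0.41 (edgeR adjusted p = 0.530), with a 95% interval from a 1.12-fold to a 3.93-fold level. Scn3b (-0.41 ± 0.27) and Scn9a (-0.27 ± 0.36) had the next largest differences under the same rule. Neither passed the test (edgeR adjusted p = 0.733 and 0.878). Without the pair the value of Scn9a was -0.31 ± 0.30.

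Groups that did not overlap between 8 h and 1 h were those of Cacna2d2 and Cacna1d, both named after their values were seen. Cacna2d2 had 62.9, 63.0 and 63.1 CPM at 8 h, against 49.2, 62.5 and 56.6 CPM at 1 h, higher in 1 of 24 members against 8.53% of all genes (log2 fold change 0.16 ± 0.14, edgeR adjusted p = 0.813). Cacna1d had 81.0, 82.6 and 83.8 CPM at 8 h, against 89.4, 90.8 and 89.2 CPM at 1 h, lower in 1 of 24 members against 6.77% of all genes (log2 fold change -0.13 ± 0.08, edgeR adjusted p = 0.712). Of the exonic bases of Cacna1d, 589 overlap Chdh on the opposite strand, a gene with 4.26 CPM.

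Cacna1e, Scn3b and Cacna2d2 were the members that set the 2 Neurod6-rich libraries apart, a pattern chosen after the values were seen. Cacna1e reached 148 CPM (1 h replicate 1) and 159 CPM (0 h replicate 2), and lay at 56.8 to 109 CPM in the other 7 libraries. Scn3b was at 45.0 and 47.7 CPM in these libraries, against 21.5 to 39.0 CPM in the others. Cacna2d2 went the other way, with 49.2 and 42.1 CPM against 56.6 to 67.6 CPM. The remaining 24 members did not have both libraries above or both below all others. The share of all genes with such a pattern was not counted, so it is not known whether the pattern is unusual for the members.

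Beside them, Neurod2 stood at 15.1 and 16.5 CPM in these libraries and at 0.34 to 5.42 CPM in the others, and Tbr1 at 7.62 CPM or more against 1.39 to 4.89 CPM. The library next in Cacna1e, 8 h replicate 2 with 109 CPM, was next in Neurod2 with 5.42 CPM but had 0.430 CPM of Neurod6. The library next in Neurod6, 8 h replicate 1 with 3.62 CPM, had the lowest Cacna1e of all, 56.8 CPM. All 7 genes of the list for excitatory neurons of cortex and hippocampus were measured, with a summed level of 619.7 to 888 CPM at 0 h, 565 to 811 CPM at 1 h and 638 to 733 CPM at 8 h. Slc17a7 and Prox1 made up most of that sum, and Emx1 was at 0 in 3 libraries. The 6 inhibitory neuron markers did not set the pair apart: they summed to 311 CPM in 1 h replicate 1 and to 161 CPM in 0 h replicate 2, against 204 to 535 CPM in the other 7 libraries. The part of these cells in the result was not tested, and in bulk tissue fewer cells of a type and less RNA per cell cannot be told apart.

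Without 0 h replicate 2, the only one of the pair in that comparison, Cacna1e differed between 8 h and 0 h by 0.12 ± 0.23 on the log2 scale, against -0.39 ± 0.32 with it, so its direction turned. Scn3b differed by -0.00 ± 0.19 without it, against -0.37 ± 0.24. Cacna2d2 differed by -0.06 ± 0.08 without it, against 0.14 ± 0.14. With or without it, 0 of these 3 genes passed the test. Between 8 h and 1 h, in the fit without the whole pair, Cacna1e differed by 0.21 ± 0.23, against -0.26 ± 0.38 with the pair, so its direction turned there too. Scn3b differed by -0.22 ± 0.22 without the pair, against -0.41 ± 0.27, and Cacna2d2 by 0.08 ± 0.08, against 0.16 ± 0.14.

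**Figure D5:**
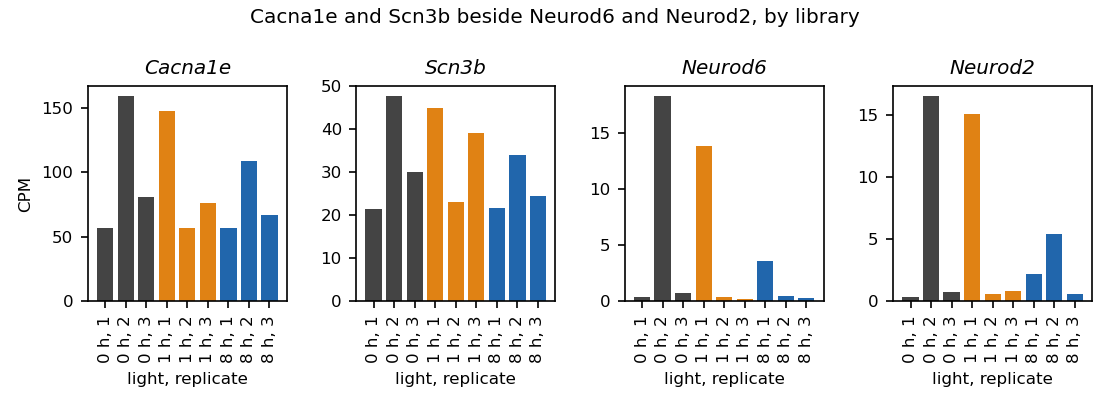
CPM of Cacna1e and Scn3b and of the transcription factors Neurod6 and Neurod2 in each library, named by light time and replicate and coloured by light time. 0 h replicate 2 and 1 h replicate 1 are the highest libraries in all 4 panels.

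Proteins that anchor, modify or regulate the channels were measured as 2 further lists. Of 19 partners of sodium channels, all 19 were tested, and edgeR called 0 higher and 0 lower in each of the 3 comparisons; at an unadjusted p under 0.05 there were 0 at 1 h, 3 at 8 h and 3 between 8 h and 1 h, against 3.2%, 10.2% and 8.9% of all genes. The nearest was Nedd4l, a ubiquitin ligase that removes sodium channels from the membrane. It had 174, 186 and 171 CPM at 8 h, against 142, 149 and 149.6 CPM at 0 h, higher without overlap as were 9.09% of all genes. The log2 fold change was 0.26 ± 0.06 (edgeR adjusted p = 0.0936), while DESeq2 called it (adjusted p = 0.0196) and the authors' deposited table gave it an FDR of 0.0838. Among 14 alternative settings it was called in 1, that of DESeq2. Sptbn4, the βIV spectrin that holds channels at initial segments and nodes, had 243, 250.2 and 251 CPM at 8 h, against 228, 208 and 198 CPM at 0 h (0.23 ± 0.06, edgeR adjusted p = 0.207). Nrcam, an adhesion protein of the same sites, differed by -0.14 ± 0.06 (edgeR adjusted p = 0.468).

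Of 29 partners of calcium channels, 26 were tested at 8 h and between 8 h and 1 h, and 25 at 1 h. edgeR and DESeq2 called 0 in each of the 3 comparisons. At an unadjusted p under 0.05 there were 0 at 1 h, 5 at 8 h and 5 between 8 h and 1 h, against the same shares of all genes (3.2%, 10.2% and 8.9%). At 8 h the nearest were Thbs1, the thrombospondin that binds α2δ-1, with 6.98, 7.68 and 5.03 CPM at 8 h, against 4.24, 3.81 and 4.43 CPM at 0 h (0.66 ± 0.19, edgeR adjusted p = 0.209), and the γ subunit relatives Cacng3 (-0.48 ± 0.20, adjusted p = 0.435) and Cacng2 (0.15 ± 0.07, adjusted p = 0.468). The 7 related channels and partners, which are the T-type genes, Nalcn and its partners Unc79, Unc80 and Fam155a, likewise gave 0 calls in each comparison by edgeR and by DESeq2. Of these, Fam155a came nearest at 8 h, with 138, 145 and 143 CPM at 8 h, against 126, 128 and 135 CPM at 0 h (0.12 ± 0.06, edgeR adjusted p = 0.519).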

How the data were processed

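RNA was measured in 9 dLGN libraries, 3 for each light time. The deposited tables hold whole-number counts per gene and library, which the authors made from ribosome-depleted total RNA; BWA, edgeR 3.14.0 and the mouse build GRCm38 (mm10) are named in the submitters' processing notes. How reads were counted, with which annotation and whether by strand, is not stated in the labels or file headers. The authors also deposited fold changes (ratios with 0 h as the denominator) with their p-values and FDRs, quoted only as theirs, and a density signal per library, the count divided by exonic length and a constant of each library, used here only as an alternative for the shares. Genes under 4 reads over the 6 libraries of a comparison were not analysed here.

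Counts were tested with the edgeR 4.0.16 quasi-likelihood method in R 4.3.3 (glmQLFit with the package defaults, TMM scaling, filterByExpr, Benjamini-Hochberg adjustment over all genes tested, threshold 0.05, two-sided), after the code had been tested on simulated counts. Comparisons with 0 h used their own 6 libraries, and 8 h against 1 h used all 9. The alternatives were DESeq2 1.42.0, RLE scaling, no filter, the other set of libraries in the fit, the legacy option of glmQLFit, a replicate block and leaving out libraries. Standard errors came from the fold change and F. Levels are CPM with TMM-scaled library sizes, per kb of the exonic length in the tables. The order and shares of genes within a class depend on that length. The comparisons with 0 h share the 0 h libraries, and p-values measure the spread between libraries, which the sample titles number as replicates. Whether a library holds a single mouse or a pool was not established here. Positions in the tables are GRCm38, and all 28 genes checked overlapped the reference gene of the same name. The windows before the start come from RefSeq (GRCm38.p6), and a RefSeq start can lie inside the gene span of the tables, as for Scn8a and Scn9a.

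The members and all gene lists were chosen with earlier results of these data known. A fold change with its test is given for members past the threshold, those with an unadjusted p under 0.05 and the 3 with the largest log2 fold change in either direction, and for the partner lists for genes past the threshold or else from the 3 with the lowest p. Genes named outside this rule are marked so. Some members are not reported here by name, and stay in the counts and medians.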

Additional observations from a re-analysis of the deposited data

Results flagged for a closer look

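Cacna1d (Cav1.3) was picked out because its libraries at the 2 light times lay on opposite sides of the 0 h mean. The 8 h libraries averaged 82.5 CPM, and all 3 lay below the 0 h mean of 88.4 CPM. The 1 h libraries averaged 89.8 CPM, and all 3 lay above that mean. The 0 h libraries themselves ran from 76.8 to 99.1 CPM and covered both groups. Against 0 h the log2 fold change was 0.02 ± 0.09 at 1 h and -0.11 ± 0.09 at 8 h, and neither passed the test. The difference itself, 8 h minus 1 h, was -0.13 ± 0.08 on the log2 scale (edgeR adjusted p = 0.712) and did not pass the test.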

How the results depend on the processing

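The count of members called was 0 under every alternative run, 14 settings for each comparison with 0 h and 17 for 8 h against 1 h; the lowest adjusted p of any member in them was 0.214 at 8 h, 0.926 at 1 h and 0.309 between the light times. Not all of these settings are distinct. The legacy option on repeats the main fit, and at 8 h leaving out the Neurod6-rich libraries is the same run as leaving out 0 h replicate 2. The count over all genes moved more. At 8 h it was 90, and 275 with DESeq2, 158 with the replicate block and 33 to 84 when 1 library was left out. At 1 h it was 2, and 14 with DESeq2, 1 with the legacy option of glmQLFit off (chosen after seeing the data), 0 with the replicate block, 0 without the Neurod6-rich libraries and 0 to 9 with 1 library left out, the 9 without 1 h replicate 3. Between 8 h and 1 h it was 94, and 197 with DESeq2, 28 without the Neurod6-rich libraries and 20 to 127 with 1 library left out. The cause of these shifts was not tested. With 1 library left out, the log2 fold change of Scn7a at 1 h ran from -0.92 to 0.11, the last without 0 h replicate 3, and that of Cacna1e at 8 h from -0.71 to 0.12, the last without 0 h replicate 2, which is the only Neurod6-rich library of that comparison. The shares of the leading genes kept within their SD, but this is no check of them. A scaling factor of a library cancels in a share, and leaving out 1 library can move the mean only little. Deviations of same-numbered libraries had correlations of -0.21 to 0.19, and those of differently numbered ones -0.23 to 0.27. With so few libraries in a group this cannot decide whether the replicate numbers pair them. The tested members under 10 CPM had standard errors of 0.32 to 0.46 and those above 10 CPM of up to 0.38; depth and spread between libraries were not separated.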
